A study of Mus musculus with 12 samples.

Results

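Axon guidance ligands and receptors are the proteins through which growing axons, and later synapses, vessels and glia, read attractive and repulsive cues. The genes described here are the protein-coding genes of the class 3 to 7 semaphorins, plexins, neuropilins, ephrins, Eph receptors, Slits, Robos, netrins, Unc5 receptors and Dcc, chosen by gene symbol with a mean of at least 1 CPM (counts per 1000000 counts of the library) over the 12 libraries. Of the 52638 entries of the count table, 68 carried such a symbol and 63 of them reached the minimum, 32 ligands and 31 receptors. Efna4, Ntn5, Epha2, Robo3 and Epha1 stayed below it. The members nearest to the minimum were Efna1 with a mean of 1.39 CPM, Ephb4 with 1.74 CPM and Robo4 with 1.92 CPM, and on the other side Epha1 had 0.756 CPM, Robo3 0.667 CPM and Epha2 0.404 CPM. All 63 members passed the filter on low counts in every comparison, and the lowest count of a member in any library was 18, for Robo4.

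The study pulled tagged ribosomes out of the hypothalamus of adult mice to read the RNA that leptin-receptor (LepRb) cells translate. All mice were homozygous for Cre in LepRb cells and for the Cre-dependent ribosomal fusion R26-GFP:L10a. Stat3KO mice were also homozygous for a floxed Stat3 allele (Stat3-flox/flox), and Ctrl mice carried LepRb-Cre/Cre and R26-GFP:L10a/GFP:L10a without it. Each of 3 pools per genotype joined the hypothalami of 5 to 8 mice, and each pool gave a bead-bound library (RNA on tagged ribosomes) and a supernatant library (RNA left after the pull-down), so there were 4 groups of 3 libraries. No group lacked Cre or the fusion protein, and the beads can also carry RNA that was not on tagged ribosomes.

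Semaphorins signal through plexins, and the secreted class 3 members mostly need a neuropilin as co-receptor. Ephrins are bound to the membrane and are read by Eph receptor tyrosine kinases on a neighbouring cell, where signals can run in both directions. Slits act on Robo receptors as repellents, and netrin-1 attracts through Dcc and repels through Unc5 receptors. In the hypothalamus these families are known for laying out projections of the arcuate nucleus and for guiding neuroendocrine axons and vessels, and leptin itself is known to promote the outgrowth of arcuate axons after birth.

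Library totals ran from 20743217 to 41829907 counts. The bead-bound libraries were checked with 8 genes typical of LepRb neurons, Lepr and Pomc among them, and all 8 were higher on beads (median log2 fold change 3.21). Stat3 itself lay at 114, 149 and 160 CPM in Stat3KO beads and at 144, 175 and 179 CPM in Ctrl beads (log2 fold change -0.24, adjusted p = 0.999), where the counts cover the whole gene and not the deleted part alone. Ctrl replicate 1 stood apart: of the 3 libraries of its group it had the lowest level for 36 and the highest for 21 of the 63 members on beads, and the lowest for 37 and the highest for 22 in supernatant. In Stat3KO, replicate 3 was the lowest most often, for 32 members on beads and 28 in supernatant, against 27 and 18 for replicate 1. Stat3KO bead replicate 1 had the lowest endothelial signal of the bead libraries. Only some results are given below without these libraries. Robo4 and Sema3g are given without Stat3KO bead replicate 1. Between genotypes, medians or counts of members are given without Ctrl replicate 1 and, on beads, without Stat3KO replicate 3. The genotype calls with replicates 2 and 3 only leave out replicate 1 of every group and keep Stat3KO replicate 3.

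The genotype removes a transcription factor of the STAT family, so the promoters of the members were searched for the palindrome TTCNNNGAA, the core of many STAT sites, which reads the same on both strands. RefSeq promoter windows (GRCm38.p6, 250 bases before to 50 bases after the start) were found for 53 of the 63 members, 69 windows in all. The palindrome lay in 3 of these windows (4.35%), against 8.3% of the 32851 windows of all genes. Those windows are shown because they are the ones that hold it, with the palindrome in capitals. They belong to Efna3 (chr3:89322890-89323189, minus strand, palindrome from position -217 counted from the start), Epha3 (chr16:63864126-63864425, minus strand, from position -35) and Sema3e (chr5:14025026-14025325, plus strand, from position 42, inside the transcribed part). A match of these letters is a description and not a binding site.
Efna3: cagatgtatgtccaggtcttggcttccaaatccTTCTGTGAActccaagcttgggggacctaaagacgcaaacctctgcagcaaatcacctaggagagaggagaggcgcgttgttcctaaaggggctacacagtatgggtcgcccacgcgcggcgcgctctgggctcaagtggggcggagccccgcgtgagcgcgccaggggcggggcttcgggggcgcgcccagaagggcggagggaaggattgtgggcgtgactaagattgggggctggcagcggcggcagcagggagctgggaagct
Epha3: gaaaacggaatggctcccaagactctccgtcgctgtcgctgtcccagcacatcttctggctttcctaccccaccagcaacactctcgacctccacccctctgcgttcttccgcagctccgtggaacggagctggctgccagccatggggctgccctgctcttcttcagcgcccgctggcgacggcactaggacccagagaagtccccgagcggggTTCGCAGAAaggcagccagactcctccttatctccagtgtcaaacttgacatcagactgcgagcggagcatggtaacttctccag
Sema3e: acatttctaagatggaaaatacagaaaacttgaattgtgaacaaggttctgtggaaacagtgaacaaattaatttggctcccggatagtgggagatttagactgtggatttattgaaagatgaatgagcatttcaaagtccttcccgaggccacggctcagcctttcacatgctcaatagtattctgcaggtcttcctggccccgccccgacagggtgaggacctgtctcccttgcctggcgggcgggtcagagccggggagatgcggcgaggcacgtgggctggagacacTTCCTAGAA

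Levels of different genes were compared per length. Per kilobase of exon, the ligand gene Efnb3 stood far above the rest on beads, with 63.2 ± 9.21 CPM per kb (SD, n = 6 libraries of both genotypes). Efnb3 encodes ephrin-B3, a transmembrane ligand known as a midline barrier for axons. It was followed by Sema6b with 22.3 ± 4.24 CPM per kb, a transmembrane semaphorin that binds A-type plexins. Sema7a, a lipid-anchored semaphorin, came next at 12.8 ± 2.17 CPM per kb, then its receptor gene Plxnc1 at 12.5 ± 2.58, Efna3 at 12.1 ± 2.26 and Sema4f at 11.6 ± 1.75 CPM per kb. The levels of these 4 lay within their spread of each other, while Efnb3 and Sema6b did not overlap in any SD interval with them or with each other. In the other families the highest members on beads were Unc5a with 9.20, Ephb6 with 8.61, Epha4 with 7.28, Slit1 with 7.14, Ntn1 with 4.16, Nrp2 with 4.10, Robo2 with 2.61 and Sema3c with 1.91 CPM per kb. At the low end were Epha3 with 0.244, Ephb4 with 0.402 and Dcc with 0.409 CPM per kb, so that Unc5a, a netrin receptor, lay far above Dcc, the other kind.

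**Figure D1:**
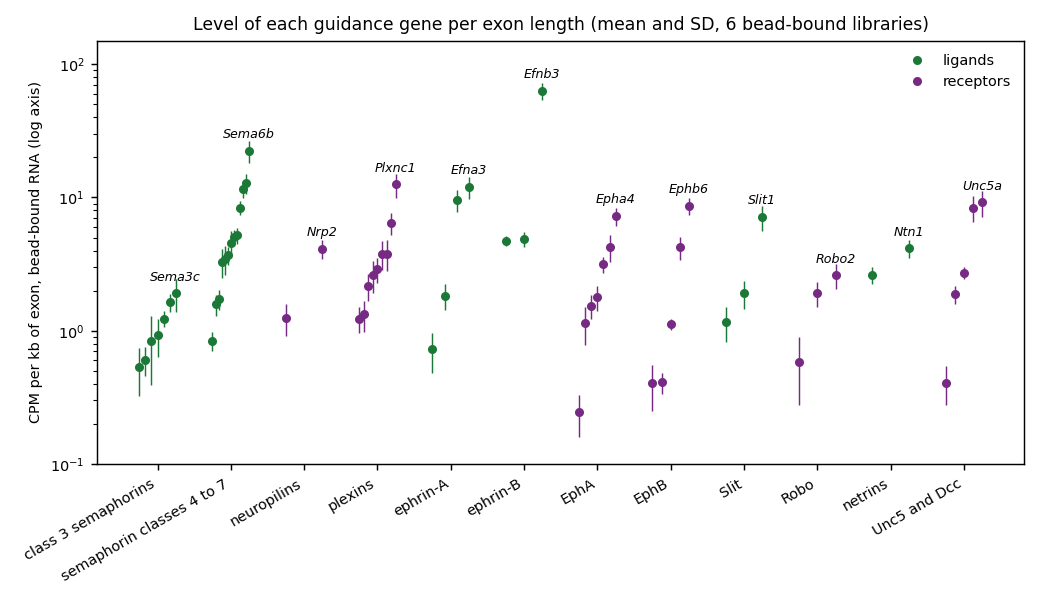
Level of each of the 63 members in bead-bound RNA as CPM per kb of exon on a log axis, by family, with green points for ligands and purple points for receptors (mean and SD over 6 libraries). Efnb3 is the highest of all at 63.2 CPM per kb and Epha3 the lowest at 0.244 CPM per kb, and the highest gene of each family is named.

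The comparison of bead-bound with supernatant RNA asks which members were at a higher or lower level in the pulled-down RNA than in the RNA left behind. Averaged over both genotypes, 14 members were higher on beads, 21 were lower and 28 did not pass. These calls come from a fit without a term for the pool, although the bead and supernatant libraries of a pool are paired. Some members that did not pass lay on one side in all 6 pools, such as Robo1 (lower) and Nrp2 (higher). Counts with the pool as a block are given below. The higher genes were mostly ligands, led by Efnb1, Ntn1, Sema4f and Sema3b, together with the vessel genes Robo4 and Sema3g. The lower genes were mostly receptors: 5 EphA genes, 5 plexin genes, 2 EphB genes, Unc5b and Unc5c. Of all 19122 genes tested, 26.2% were higher and 28.7% lower (edgeR's quasi-likelihood test, adjusted p under 0.05), so the members' shares, 22.2% higher and 33.3% lower, were near the background. Their median log2 fold change was -0.12, against -0.03 for all genes tested. Ligands and receptors split differently: 11 of 32 ligands were higher and 7 lower (median 0.04), whereas 3 of 31 receptors were higher and 14 lower (median -0.24). No test was made of that difference between the lists or of the part of exon length in it. Among all protein-coding genes the fold changes fell with exon length, as given below. With library totals in place of TMM factors the median of all genes moved by -0.13 and the members split into 11 higher and 26 lower, that is 29.7% of the calls higher in place of 40% (all genes 19% higher and 35.2% lower). Negative members then numbered 42 in place of 34, so members near 0 changed sign.

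**Figure D2:**
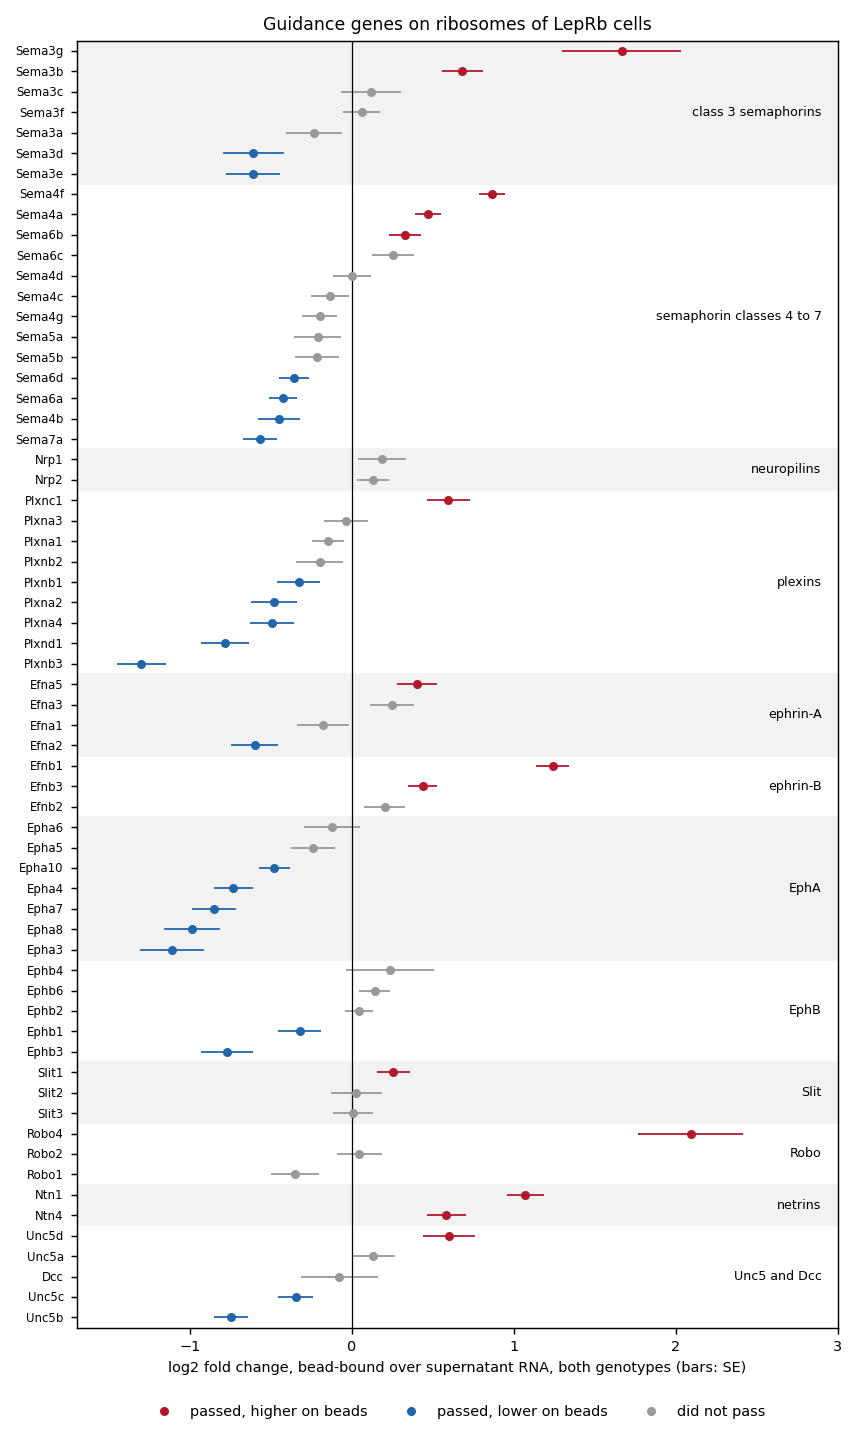
log2 fold change of bead-bound over supernatant RNA for each of the 63 members by family, with bars for the SE (edgeR, both genotypes, 6 libraries against 6). Red points passed as higher (14 genes), blue points as lower (21 genes) and grey points did not pass; all 7 EphA genes lie left of 0.

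Among the secreted semaphorins, 2 of 7 were higher and 2 lower. Sema3g (chr14:31217860-31230352, plus strand, GRCm38), which vessel cells are known to make, lay at 0.944, 6.85 and 4.52 CPM in Stat3KO beads and at 2.79, 2.95 and 4.90 CPM in Ctrl beads. Its supernatant levels were 2.07, 1.25 and 0.870 CPM for Stat3KO and 0.930, 1.18 and 0.955 CPM for Ctrl. Stat3KO bead replicate 1 fell among the supernatants, and the other 5 bead libraries lay above all of them (log2 fold change 1.67, SE 0.369, adjusted p = 0.00163). Sema3b lay at 5.28, 5.09 and 5.38 CPM in Stat3KO beads and at 6.05, 7.31 and 6.19 CPM in Ctrl beads. In supernatant it lay at 3.79, 3.23 and 3.80 CPM for Stat3KO and at 3.85, 4.28 and 2.96 CPM for Ctrl. All 6 bead libraries were above all 6 supernatants (0.68, SE 0.127, adjusted p = 0.000449), which held for 15% of all genes and for 6 members: Sema3b, Sema4f, Efnb1, Robo4, Ntn1 and Ntn4. Sema3d (-0.61) and Sema3e (-0.61), whose product is a ligand of plexin D1, were lower, and Sema3a, Sema3c and Sema3f did not pass.

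Of the 13 membrane semaphorins, 3 were higher and 4 lower. Sema4f was the most clearly separated of them. It lay at 60.7, 55.4 and 47.1 CPM in Stat3KO beads and at 64.1, 72.1 and 69.4 CPM in Ctrl beads. In supernatant it lay at 32.6, 31.1 and 31.6 CPM for Stat3KO and at 36.4, 34.4 and 35.0 CPM for Ctrl. Every bead library exceeded every supernatant library (0.87, SE 0.0805, adjusted p = 1.48e-06). Sema4a (0.47) and Sema6b (0.33) were also higher, and Sema4b (-0.45), Sema6a (-0.42), Sema6d (-0.36) and Sema7a (-0.57) were lower, although Sema7a was among the members with the highest level per kb. With library totals Sema6b was at 0.20 and no longer passed.

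Their receptors were mostly lower on beads. Of the 9 plexin genes 5 were lower and 1 was higher. Plxnb3 (chrX:73757090-73772514, plus strand), a plexin known from oligodendrocytes, fell the furthest: it lay at 7.05, 11.1 and 7.81 CPM in Stat3KO beads and at 12.0, 7.09 and 6.67 CPM in Ctrl beads. Its supernatant levels were 17.7, 20.7 and 19.4 CPM for Stat3KO and 22.9, 23.7 and 23.0 CPM for Ctrl. The 6 bead libraries were all below the 6 supernatants (-1.30, SE 0.151, adjusted p = 9.61e-06). Markers of mature oligodendrocytes moved the same way, with 12 of 12 lower on beads (median -1.43), none of them at 0 in all libraries, and summed levels of 1865 to 3340 CPM on beads and 5112 to 7882 CPM in supernatant; the part of such cells in the level of Plxnb3 was not tested. The 4 members known from oligodendrocytes did not share one direction. Of these, 2 were lower (Plxnb3 and Sema6a), 1 was higher (Efnb3) and 1 did not pass (Sema4d), with a median of -0.21. Bead-bound and supernatant RNA of a pool came from the same hypothalami, so these values compare fractions and not numbers of cells.

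Plxnd1, the receptor of Sema3e in vessels and neurons, lay at 7.17, 9.19 and 7.35 CPM in Stat3KO beads and at 11.9, 7.60 and 10.9 CPM in Ctrl beads. In supernatant it lay at 16.7, 10.3 and 13.4 CPM for Stat3KO and at 18.0, 20.0 and 14.9 CPM for Ctrl. The ranges overlapped, and the difference passed (-0.78, SE 0.146, adjusted p = 0.000456). Plxnc1, the receptor of Sema7a, went the other way. It lay at 86.3, 105 and 106 CPM in Stat3KO beads and at 75.0, 124 and 132 CPM in Ctrl beads, against 60.4, 66.9 and 63.6 CPM for Stat3KO and 61.7, 79.1 and 84.5 CPM in Ctrl supernatant. It was the only plexin that was higher on beads (0.60, SE 0.130, adjusted p = 0.00146), and the beads were higher in all 6 pools, while its ligand gene Sema7a was lower in all 6. Plxna2 (-0.48), Plxna4 (-0.49) and Plxnb1 (-0.33) were lower, Plxnb1 only just: its call was lost when replicate 1 of every group was left out (-0.17) and when single libraries were. The 2 neuropilins, Nrp1 (0.19, SE 0.148) and Nrp2 (0.13, SE 0.0989), did not pass.

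Of the 3 B-type ephrins 2 were higher on beads and none lower. Efnb1 (chrX:99136130-99148991, plus strand), a B-type ephrin, lay at 15.7, 16.8 and 14.2 CPM in Stat3KO beads and at 18.5, 16.4 and 16.7 CPM in Ctrl beads. Its supernatant levels were 5.55, 5.75 and 7.12 CPM for Stat3KO and 8.63, 7.48 and 7.43 CPM for Ctrl. The fractions did not overlap, and Efnb1 had the lowest adjusted p of all members (1.24, SE 0.102, adjusted p = 5.28e-07). Efnb3 was higher as well, with 155 to 232 CPM on beads and 124 to 164 CPM in supernatant (0.44, SE 0.0902, adjusted p = 0.000949), and Efnb2 did not pass (0.20, SE 0.126). Of the 4 ephrin-A genes, Efna5 was higher (0.40; 0.27 and no longer called with library totals), Efna2 lower (-0.60), and Efna1 and Efna3 did not pass.

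All 7 EphA genes had negative log2 fold changes (median -0.73), and 5 of them passed as lower. Epha4, a receptor that binds ephrins of both classes, lay at 55.3, 53.7 and 53.3 CPM in Stat3KO beads and at 51.2, 63.2 and 75.0 CPM in Ctrl beads. In supernatant it lay at 87.3, 93.4 and 92.7 CPM for Stat3KO and at 74.1, 114 and 122 CPM for Ctrl (-0.73, SE 0.121, adjusted p = 0.000173). Only Ctrl replicate 1 brought the fractions together, with 74.1 CPM in supernatant against 75.0 CPM for Ctrl bead replicate 3. Epha7, a receptor for ephrin-A ligands, lay at 19.0, 15.3 and 13.5 CPM in Stat3KO beads and at 14.9, 19.0 and 23.7 CPM in Ctrl beads, against 28.6, 32.7 and 27.0 CPM for Stat3KO and 26.6, 35.8 and 38.8 CPM in Ctrl supernatant. It was lower in every bead library than in any supernatant (-0.85, SE 0.134, adjusted p = 0.000117), as were 15.9% of all genes and 6 members: Plxnb3, Epha3, Epha7, Epha10, Ephb3 and Unc5b.

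Epha3, another receptor of A-type ephrins, lay at 1.10, 1.60 and 2.32 CPM in Stat3KO beads and at 2.46, 3.21 and 2.05 CPM in Ctrl beads. In supernatant it lay at 3.53, 3.67 and 3.76 CPM for Stat3KO and at 3.81, 5.89 and 6.76 CPM for Ctrl (-1.11, SE 0.199, adjusted p = 0.000321). Its promoter is one of the 3 with the palindrome. Epha8, also of the A class, lay at 4.84, 5.46 and 3.80 CPM in Stat3KO beads and at 8.63, 4.49 and 4.95 CPM in Ctrl beads, against 12.9, 8.46 and 10.3 CPM for Stat3KO and 12.3, 9.57 and 9.65 CPM in Ctrl supernatant (-0.99, SE 0.174, adjusted p = 0.000294). Ctrl bead replicate 1 lay just above the lowest supernatant library. Epha10 (-0.48), whose product lacks kinase activity, was lower too, and Epha5 (-0.24) and Epha6 (-0.12) did not pass.

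Among the 5 EphB genes, Ephb3 lay at 2.64, 3.39 and 2.17 CPM in Stat3KO beads and at 3.04, 2.15 and 2.93 CPM in Ctrl beads. Its supernatant levels were 3.76, 4.90 and 4.55 CPM for Stat3KO and 5.93, 4.16 and 4.68 CPM for Ctrl, so the fractions did not overlap (-0.77, SE 0.161, adjusted p = 0.00108). Ephb1 was lower at the edge of the threshold (-0.32, adjusted p = 0.0491), a call lost when most of the single libraries were left out. Ephb2 (0.04), Ephb4 (0.24, SE 0.270) and Ephb6 (0.14) did not pass.

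Both netrin genes were higher on beads. Ntn1 (chr11:68209364-68400823, minus strand), which encodes the diffusible cue netrin-1, lay at 24.6, 25.7 and 20.8 CPM in Stat3KO beads and at 24.5, 28.7 and 32.2 CPM in Ctrl beads. Its supernatant levels were 14.4, 11.2 and 10.3 CPM for Stat3KO and 11.3, 13.4 and 13.5 CPM for Ctrl. Bead and supernatant libraries were fully apart (1.07, SE 0.112, adjusted p = 4.09e-06), and Ntn4, a netrin found in basement membranes, was at 0.58 (SE 0.121, adjusted p = 0.00100). The netrin receptors did not share one direction.

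Unc5d, a repulsive netrin receptor that also binds FLRT proteins, lay at 77.6, 74.6 and 76.2 CPM in Stat3KO beads and at 47.1, 91.1 and 95.2 CPM in Ctrl beads. In supernatant it lay at 49.5, 49.9 and 43.2 CPM for Stat3KO and at 39.1, 60.2 and 63.2 CPM for Ctrl (0.60, SE 0.158, adjusted p = 0.00531). Ctrl replicate 1 was the lowest Ctrl library in each fraction, and within each of the 6 pools the bead library was higher. Unc5b, a receptor known from vessel tip cells as well as axons, lay at 17.0, 16.1 and 14.2 CPM in Stat3KO beads and at 19.6, 17.8 and 17.3 CPM in Ctrl beads, against 25.7, 22.4 and 24.9 CPM for Stat3KO and 26.7, 33.2 and 39.5 CPM in Ctrl supernatant. Every bead library was below every supernatant (-0.74, SE 0.103, adjusted p = 4.16e-05). Unc5c was also lower (-0.35), and Unc5a (0.13) and Dcc (-0.08, SE 0.237) did not pass.

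**Figure D3:**
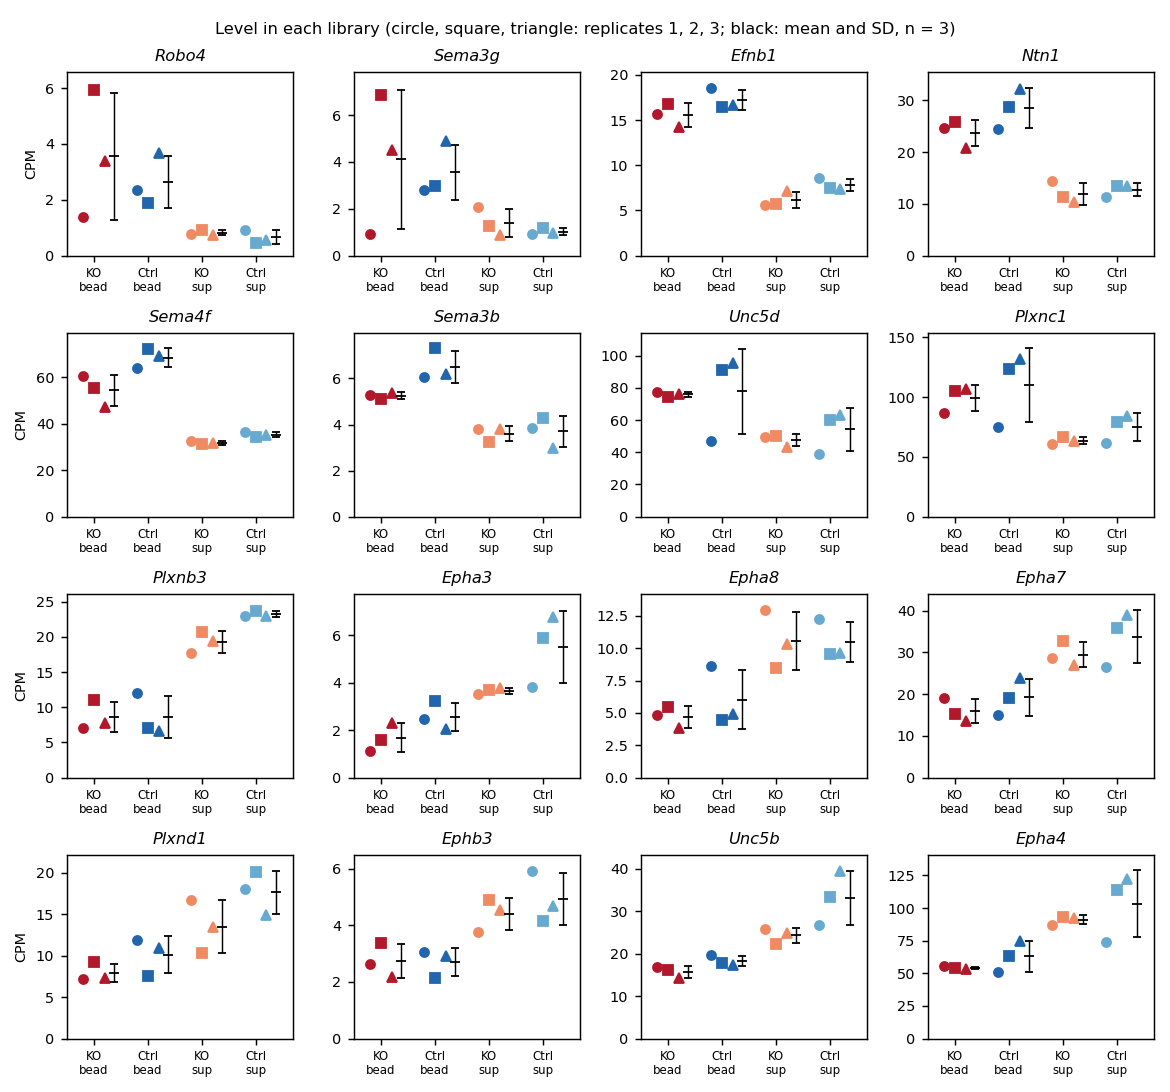
CPM in each library for the 8 members with the largest rise on beads (top 2 lines of panels) and the 8 with the largest fall (bottom 2 lines), with the mean and SD of each group of 3 in black and every vertical axis starting at 0. Ntn1, Efnb1 and Sema4f are fully apart between fractions, whereas Stat3KO bead replicate 1 of Robo4 (1.38 CPM) and Sema3g (0.944 CPM) lies near the supernatants.

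Robo4 (chr9:37401897-37415115, plus strand, GRCm38), the Robo of vessel endothelium, had the largest rise of all members. It lay at 1.38, 5.93 and 3.38 CPM in Stat3KO beads and at 2.34, 1.89 and 3.69 CPM in Ctrl beads. Its supernatant levels were 0.782, 0.924 and 0.751 CPM for Stat3KO and 0.930, 0.453 and 0.573 CPM for Ctrl, below all bead libraries (2.09, SE 0.324, adjusted p = 0.000102). Each was below 1 CPM, so Robo4 reached the minimum level only through the bead libraries, and its rank among the rises follows partly from that. Of the 62 members at 1 CPM or more in both fractions, 13 were higher and 21 lower, and the largest rise was 1.67. Of the 15 endothelial markers 14 were higher on beads (median 1.69), none at 0 in all libraries. Their summed levels were 44.1, 222 and 159 CPM in Stat3KO beads, 104, 111 and 203 CPM in Ctrl beads and 39.9 to 49.8 CPM in supernatant. Stat3KO bead replicate 1, the lowest of the 6 bead libraries in this sum, was also the lowest for Robo4 and Sema3g; their part in these results was not tested. Without that library the log2 fold change was 2.29 for Robo4 and 1.90 for Sema3g. Of 9 members known from vessels, 3 were higher (Robo4, Sema3g and Ntn4), 2 lower (Plxnd1 and Unc5b) and 4 did not pass (median 0.20). Robo1 (-0.35, SE 0.149) and Robo2 (0.05) did not pass, nor did Slit2 (0.03) and Slit3 (0.01), while Slit1 was just higher (0.26, adjusted p = 0.0498; 0.13 and no longer called with library totals).

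**Figure D4:**
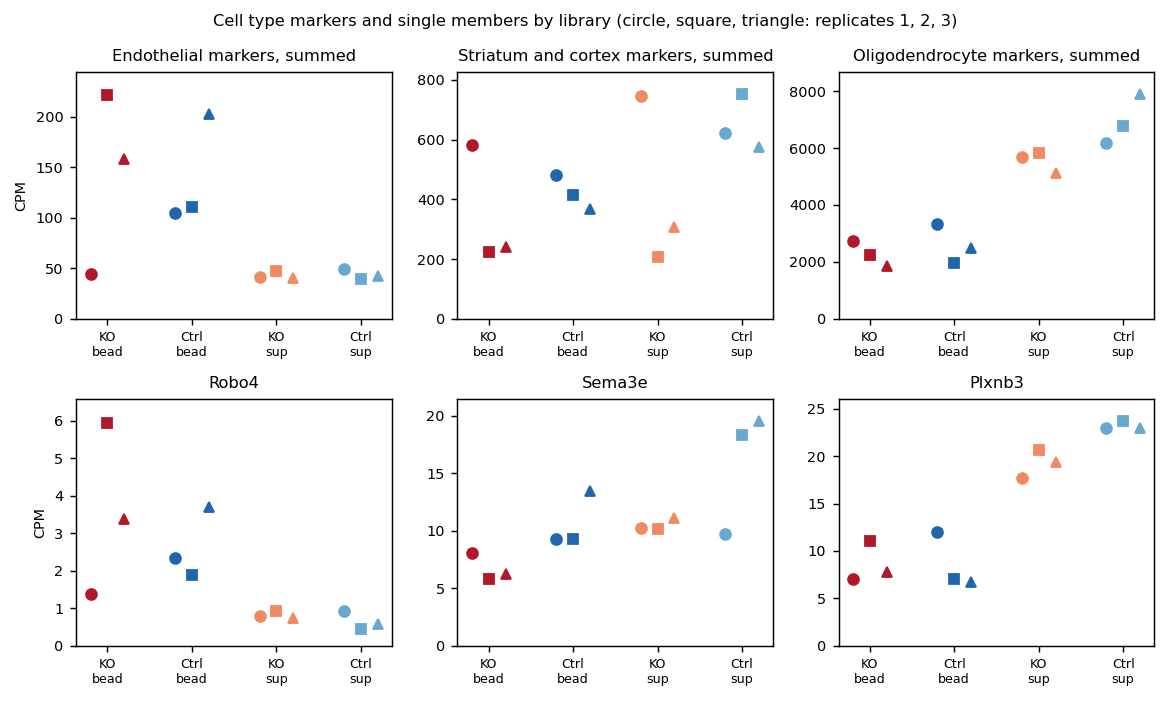
Summed CPM of endothelial, striatal and cortical, and oligodendrocyte markers (top) and CPM of Robo4, Sema3e and Plxnb3 (bottom) in each library, with circles, squares and triangles for replicates 1, 2 and 3 and every axis starting at 0. Stat3KO bead replicate 1 is the lowest bead library in the endothelial sum (44.1 CPM) and in Robo4 (1.38 CPM), and Stat3KO replicates 2 and 3 are the lowest in the striatal and cortical sum of each fraction.

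Within single genotypes fewer members passed. In Ctrl, 11 members were higher and 13 lower on beads, against 20.7% and 21.2% of 18036 genes tested. In Stat3KO, 9 were higher and 16 lower, against 14.7% and 17.3% of 18107 genes. With the pool as a block, which these fractions of the same pools allow, 17 were higher and 27 lower in Ctrl, where 29.4% and 29% of all genes were. Over both genotypes the block gave 18 higher and 26 lower, against 31.5% and 34% of all genes. Transcript length moved with the comparison: the median log2 fold change of protein-coding genes was 0.17 for exon lengths of 2 to 4 kb, -0.02 for 4 to 8 kb and -0.30 over 8 kb. The members' medians in these bands were 0.29 (8 genes), 0.01 (29 genes) and -0.24 (25 genes), and the part of length in the single calls was not tested.

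Other genes of the pathway were counted in 2 lists, where 26.2% of all genes tested were higher on beads and 28.7% lower. Of 36 other guidance ligands, receptors and co-receptors, 2 were higher and 15 lower (median -0.39). The higher ones were Rgmb, a membrane co-receptor of bone morphogenetic proteins (0.51, SE 0.0790, adjusted p = 0.000105), and Flrt3, an adhesion protein that binds Unc5 receptors (0.38, SE 0.147, adjusted p = 0.0409). The largest falls were in Cdon (-1.36, SE 0.184) and Boc (-1.14, SE 0.238), co-receptors of Sonic hedgehog. Of 52 intracellular mediators, 16 were higher and 18 lower (median -0.10), which is near the shares of all genes. Evl, an actin-regulating protein of the Ena/VASP family (0.53, SE 0.0794), and Rnd1, a small GTPase that binds plexins (0.51, SE 0.0974), rose the most. Dock1, an activator of Rac (-1.29, SE 0.135), and Rock1, a kinase downstream of RhoA (-1.12, SE 0.120), fell the most.

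The comparison of Stat3KO with Ctrl asks whether loss of Stat3 in LepRb cells changed these genes. In bead-bound RNA edgeR called 0 of the 63 members in either direction, against 0.421% of 17354 genes higher and 0.0288% lower, and DESeq2 also called 0. In supernatant 0 members were called by both tools, against 0% and 0.0108% of 18547 genes by edgeR. At an unadjusted p under 0.05 there were 8 members in bead-bound RNA and 13 in supernatant, where 4.11% and 6.2% of all genes were under it. The signs were uneven: 56 of 63 members were lower in Stat3KO beads (median -0.27, all genes -0.01, 51.7% of all genes below 0) and 55 of 63 in Stat3KO supernatant (median -0.21, all genes 0.00, 50.7% below 0). The 3 Stat3KO libraries lay below the 3 Ctrl libraries without overlap for 9 members on beads and 12 in supernatant, and above them for 0 in each. Among all genes such a gap occurred below in 4.27% on beads and 6.26% in supernatant, and above in 5.1% and 6.4%. The members share libraries, so these counts are a description of these samples and not 63 separate results.

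The members with the lowest p on beads were ligands. Sema3e (chr5:14025276-14256689, plus strand) lay at 8.08, 5.83 and 6.27 CPM in Stat3KO beads and at 9.30, 9.27 and 13.5 CPM in Ctrl beads. The groups did not overlap, and the difference did not pass (-0.67, SE 0.219, adjusted p = 0.846). In supernatant Sema3e lay at 10.3, 10.1 and 11.1 CPM for Stat3KO and at 9.70, 18.3 and 19.6 CPM for Ctrl, where Ctrl replicate 1 was below every Stat3KO library (-0.62, SE 0.216, adjusted p = 0.653). Sema3e has the palindrome in its promoter window, and the part of this match in its levels was not tested. Efna3, which also has it, was not called between genotypes even with replicates 2 and 3 only (-0.22 on beads, -0.13 in supernatant). Efna1, an A-type ephrin, lay at 0.849, 0.971 and 0.973 CPM in Stat3KO beads and at 1.67, 1.70 and 1.80 CPM in Ctrl beads. These groups were apart as well, at low counts (-0.89, SE 0.294, adjusted p = 0.857). Sema3d, a secreted semaphorin, lay at 3.68, 3.75 and 3.06 CPM in Stat3KO beads and at 3.25, 6.45 and 7.35 CPM in Ctrl beads, with Ctrl replicate 1 among the Stat3KO libraries (-0.71, SE 0.297, adjusted p = 0.999). On beads all 8 members with an unadjusted p under 0.05 were ligands.

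In supernatant 7 ligands and 6 receptors had an unadjusted p under 0.05, and the 3 lowest p values were those of receptors. Plxna3, a co-receptor for class 3 semaphorins, lay at 14.5, 15.5 and 14.5 CPM for Stat3KO and at 24.3, 18.1 and 19.3 CPM for Ctrl (-0.48, SE 0.132, adjusted p = 0.535). Unc5b lay at 25.7, 22.4 and 24.9 CPM for Stat3KO and at 26.7, 33.2 and 39.5 CPM for Ctrl (-0.46, SE 0.144, adjusted p = 0.600). Epha3 lay at 3.53, 3.67 and 3.76 CPM for Stat3KO and at 3.81, 5.89 and 6.76 CPM for Ctrl (-0.61, SE 0.211, adjusted p = 0.652). For each of these 3 the groups did not overlap, and none passed. The bead values of these genes, -0.37 for Plxna3, -0.21 for Unc5b and -0.62 for Epha3, did not pass either.

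Single libraries left out moved the genotype comparison both ways. On beads the members' median ran from -0.32 (without Stat3KO replicate 2) to -0.20 (without Stat3KO replicate 3), against -0.27. Members at an unadjusted p under 0.05 (edgeR) numbered 2 (without Ctrl replicate 3) to 22 (without Ctrl replicate 1), against 8. In supernatant the median ran from -0.29 (26 such members, without Ctrl replicate 1) to -0.16 (2, without Ctrl replicate 3), against -0.21 (13). Of the alternatives tried, leaving out replicate 1 of every group moved this comparison the most. With replicates 2 and 3 of each group alone, 16 members were lower and 0 higher in Stat3KO beads (25.4%, against 5.1% of genes lower and 1.56% higher), and the median was -0.33. In supernatant 20 were lower and 0 higher (31.7%, against 4.22% lower and 1.07% higher), with a median of -0.30. The calls on beads were 10 ligands and 6 receptors, and those in supernatant 8 ligands and 12 receptors. Sema3e was at -0.94 on beads (adjusted p = 0.00368) and -0.86 in supernatant (adjusted p = 0.00207), and Sema3d at -1.04 on beads (adjusted p = 0.00496). Among receptors, Epha5 was at -0.58 on beads and -0.53 in supernatant, Robo2 at -0.50 and -0.58, and Nrp2 at -0.50 and -0.49. The lists shared 11 genes, 68.8% of the bead list and 55% of the supernatant list: Sema3e, Sema4d, Sema5a, Sema6a, Efnb2, Efnb3, Nrp2, Plxna4, Epha4, Epha5 and Robo2. Both lists come from the same pools and are not separate comparisons, and the overlap among all genes called was not computed. With 2 pools a group the spread is estimated from few samples, and the choice of replicate 1 rests on an earlier look at these data. Stat3KO replicates 2 and 3 were also below all Ctrl libraries in the summed markers of striatum and cortex, as given below. The part of that difference in these calls was not tested.

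**Figure D5:**
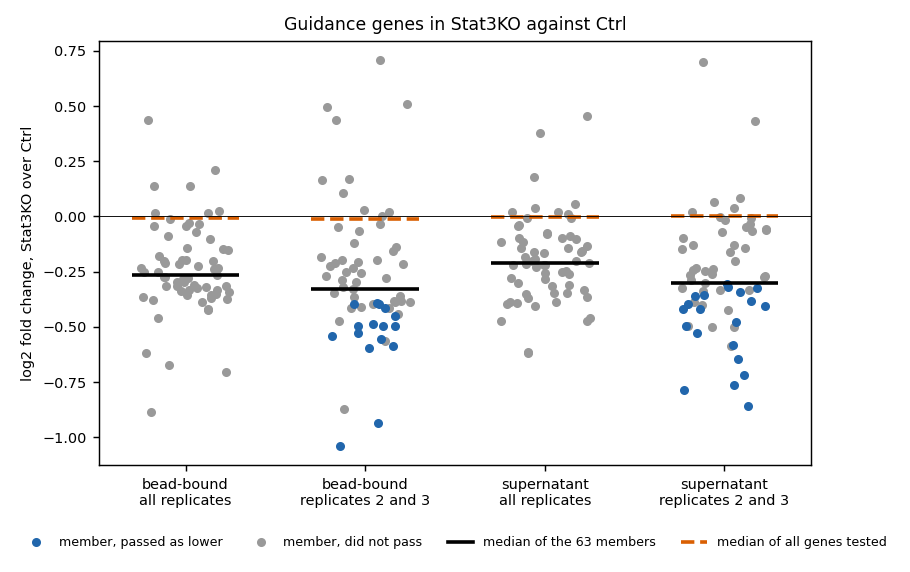
log2 fold change of Stat3KO over Ctrl for the 63 members in bead-bound and supernatant RNA, with all replicates and with replicates 2 and 3 only; black lines are the members' medians and dashed orange lines the medians of all genes tested. With all replicates no point is blue (0 called), and with replicates 2 and 3 only 16 and 20 points are blue, all below 0.

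Markers of neighbouring tissue and of glia differed between these libraries. The 9 markers of striatum and cortex summed to 582, 224 and 240 CPM in Stat3KO beads and to 483, 415 and 367 CPM in Ctrl beads. In supernatant the sums were 745, 207 and 307 CPM for Stat3KO and 623, 753 and 576 CPM for Ctrl. Stat3KO replicate 1 was thus above all Ctrl libraries on beads and within their range in supernatant, and Stat3KO replicates 2 and 3 were below all of them in both fractions. Their median log2 fold change was -0.29 on beads and -0.62 in supernatant. The medians of other markers in supernatant were -0.42 for oligodendrocytes, -0.36 for microglia and -0.30 for astrocytes, against 0.01 for neurons, and on beads -0.22, -0.32, -0.21 and -0.08. Markers of oligodendrocyte precursors were at -0.35 on beads and -0.23 in supernatant. Markers of thalamus went the other way in supernatant (median 0.19), with sums of 1170 to 1545 CPM for Stat3KO and 1040 to 1170 CPM for Ctrl, and were at 0.02 on beads. None of these markers passed the test between genotypes, and none was at 0 in all libraries. The part of striatal, cortical or glial RNA in the lower levels of the guidance genes was not tested. Between genotypes, fewer cells of a type and less RNA per cell cannot be told apart in these bulk libraries. Over the exon length bands of all protein-coding genes, the medians ran from -0.02 to 0.02 on beads, and in supernatant they fell from 0.07 under 1 kb to -0.03 over 8 kb. Pituitary markers, a list that holds Pomc, were at -1.01 on beads and -1.19 in supernatant, and 1 of 5 passed on beads.

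Whether the ratio of bead-bound to supernatant RNA differed by genotype was tested directly. edgeR called 0 of the 63 members, with 0 at an unadjusted p under 0.05 (all genes 0.193% higher and 0.0105% lower, 2.12% at that unadjusted p), and DESeq2 called 0. The lowest p values belonged to Sema6b (-0.34, SE 0.196), Efna1 (-0.48, SE 0.324) and Slit3 (-0.34, SE 0.244), each with adjusted p = 1.00. Sema6b, a ligand, lay at 83.9, 82.0 and 64.8 CPM in Stat3KO beads and at 114, 100 and 85.2 CPM in Ctrl beads, without overlap, whereas its supernatants at 78.0, 61.2 and 67.8 CPM for Stat3KO and 71.1, 68.0 and 72.8 CPM for Ctrl overlapped. For Slit3, Ephb2 and Dcc the 3 pools of one genotype had a bead to supernatant ratio above 1 and the 3 pools of the other a ratio below 1, as in 0.769% of all genes tested. The log2 ratios of Slit3, a repulsive ligand of Robo receptors, were -0.40, -0.01 and -0.10 in Stat3KO and 0.06, 0.24 and 0.20 in Ctrl. Those of Dcc, the attractive netrin receptor, were 0.15, 0.29 and 0.02 in Stat3KO and -0.81, -0.19 and -0.22 in Ctrl. None of these differences passed (unadjusted p = 0.189 for Slit3, 0.218 for Ephb2 and 0.327 for Dcc). The other pathway genes gave 0 calls between genotypes in both lists, with medians on beads of -0.17 for the 36 ligands, receptors and co-receptors and 0.02 for the 52 intracellular mediators.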

How the data were processed

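The deposited table holds raw counts per Ensembl gene, 1 column for each of the 12 libraries, not normalised by the authors. Per the submitters' processing notes, reads were aligned with STAR 2.5.3a to mm10; counting tool, annotation and filters: not given in the sources used here. Per the labels, libraries were made with a TruSeq kit that is not stated to keep the strand, and 11 members share 0.617% to 14.1% of their exon bases with a gene on the opposite strand. IDs were matched to GENCODE M21 (GRCm38), and 233 of 52638 had no match.

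Levels are CPM with TMM factors over all 12 libraries. Genes were filtered with filterByExpr (minimum count 10, total 15) and tested with edgeR 4.0.16's quasi-likelihood test, fitted on all genes, with Benjamini-Hochberg adjustment over all genes and a threshold of 0.05; log2 fold changes have SE = |log2 fold change| / √F. Both genotypes entered the averaged bead comparison and the ratio test, and only the compared groups entered the others. DESeq2 1.42.0 was an alternative, with library totals, no filter, a replicate block, all 12 libraries in 1 fit, replicates 2 and 3 only, and each library left out. The steps were tested on simulated data. Bead and supernatant libraries of one number come from one pool, and their deviations from the group means correlated (r = 0.352 to 0.600), so they are paired. Across genotypes the numbers mark different pools (r = -0.0668 to 0.295 for pairs of one number). Replicate 1 of Stat3KO and of Ctrl correlated at 0.251 on beads and 0.226 in supernatant. Pairs of a replicate 1 with another number were all negative (r = -0.378 to -0.0224). Deviations from a group mean cancel out within the group, so a positive pair pushes the others towards negative values. Whether libraries of one number were handled together was not tested. Nothing says that pools came from separate litters, so p-values between genotypes measure the spread between pools. The bead and ratio tests took the libraries of one pool as independent, without a pool term. Their p-values rest on a spread that mixes variation between and within pools. Values in every library are given for the 8 largest rises and falls among called members on beads, and for the 3 lowest p in each genotype comparison; the highest member per kb of each family is also named, and other members were added after their values were seen. The members, lists and alternatives were chosen with earlier results of these data known.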

Additional observations from a re-analysis of the deposited data

How the results depend on the processing

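Alternatives were computed for 44 values, those of the called members and of the lowest p between genotypes, and 0 of these reversed; members near 0 on beads were not followed singly, and with library totals 42 members were negative in place of 34. Of 718 values under alternatives, 682 stayed on the same side of the threshold, 32 lost a call (Slit1, Plxnb1 and Ephb1 when single libraries were left out, Plxnb1 with replicates 2 and 3 only, and Efna5, Sema6b and Slit1 with library totals) and 4 gained one (Sema3d, Sema3e, Unc5b and Epha3 with replicates 2 and 3 only). In Ctrl, the members lower on beads numbered 20 with library totals, 23 with replicates 2 and 3 only and 5 to 14 with single libraries left out, with 5 without Ctrl bead replicate 2 or Ctrl supernatant replicate 3 and 7 without Ctrl supernatant replicate 2, against 13. With the pool as a replicate block there were 17 higher and 27 lower in Ctrl. The block changed no call among the 44 values followed and no other count by over 1.5 times. In Stat3KO the lower members numbered 7 to 17 with single libraries left out, with 7 without Stat3KO supernatant replicate 2 or bead replicate 3 and 8 without supernatant replicate 3, against 16. Between genotypes, the lower members numbered 16 on beads and 20 in supernatant with replicates 2 and 3 only. In supernatant 1 member was called without the low-count filter (Sema3e, -0.62, adjusted p = 0.0143) and 1 without Stat3KO supernatant replicate 1 (Efnb2, -0.68, adjusted p = 0.0494), and single libraries left out gave 0 to 1. The cause was not tested. Depth limits Robo4, Sema3g, Ephb4, Efna1 and Epha3 the most, with 18 to 35 counts in their lowest library.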
